A study of Mus musculus with 4 samples.

Results

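The genes described here form the switch that takes a T cell out of quiescence: the D-type cyclins Ccnd2 and Ccnd3, their kinases Cdk4 and Cdk6, the CDK inhibitors Cdkn1a (p21), Cdkn1b (p27) and Cdkn2c (p18), and Rb1, the retinoblastoma protein that the kinases inactivate. They were chosen by symbol, with earlier results of these data known, and all 8 were found once among the 37583 features of the deposited tables. Expression was measured by RNA sequencing in 4 libraries, 1 per group, from CD4+ T cells that were naive when sorted from the spleens of C57BL/6 mice. The cells were activated for 24 h with plate-bound antibodies to CD3 and CD28 in the presence of IL-1β, IL-6 and IL-23, with IL-4 and IFN-γ neutralised, a culture labelled aTh17. One library came from cells given 1.5 µM DMAT and another from cells given 1 µM CX4945, both inhibitors of the protein kinase CK2. The other two came from cultures without inhibitor, which the titles name as the control for DMAT and the control for CX4945, and whether they received a vehicle is not in the labels. The libraries held 2056635 to 2772525 exon reads. The labels give neither the age nor the number of mice, and nothing in them says that the pairs came from separate animals.

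In resting T cells p27 and the INK4 inhibitors hold back entry into the cell cycle. Signals from the antigen receptor and CD28 raise cyclin D2 and then cyclin D3, which bind CDK4 and CDK6. The active kinases phosphorylate Rb, which then releases E2F factors, and E2F turns on the genes of DNA replication. p21 is both a brake on cyclin-CDK complexes and a classical target of p53, while MYC, which activated T cells express strongly, is a known activator of Cdk4.

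Stretches from 2 promoters are shown because they carry the recognition letters of MYC and p53, whose transcripts and targets are described further on. Of the 8 genes, 6 had a promoter in the RefSeq table (GRCm38.p6), with 9 windows between them, which leaves out Ccnd2 and Rb1. Each stretch below is the 250 bases before a transcription start, on the plus strand, 5′ to 3′. The first is chr10:127063285-127063534, where capitals mark each CACGTG, the E-box that MYC and MAX bind, and the second is chr17:29090729-29090978, an upstream start of Cdkn1a, where capitals mark matches to the p53 half-site.
Cdk4: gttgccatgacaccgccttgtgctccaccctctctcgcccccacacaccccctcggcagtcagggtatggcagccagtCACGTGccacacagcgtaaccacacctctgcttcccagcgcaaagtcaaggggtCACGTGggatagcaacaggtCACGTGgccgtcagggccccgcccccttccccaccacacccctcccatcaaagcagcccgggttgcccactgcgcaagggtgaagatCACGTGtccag
Cdkn1a: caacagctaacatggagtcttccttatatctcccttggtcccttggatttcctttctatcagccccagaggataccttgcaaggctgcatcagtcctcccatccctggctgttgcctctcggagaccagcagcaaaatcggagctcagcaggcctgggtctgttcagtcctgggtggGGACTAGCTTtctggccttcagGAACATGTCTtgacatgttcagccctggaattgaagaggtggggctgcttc

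The Cdk4 stretch holds 4 copies of CACGTG, a palindrome that reads the same on both strands, and that of Cdk6 holds 1. Of 32851 windows of the same length, 6.02% hold at least 1. The Cdkn1a stretch holds 2 p53 half-sites and the window at its downstream start holds 0, while 7.13% of all windows hold at least 1. An 8-letter E2F site (TTTCGCGC, TTTGGCGC, TTTCCCGC or TTTGCCGC, either strand) was found in 0 of the 9 windows and in 1.86% of all windows. The forkhead site GTAAACA, on either strand, was found in 1 window, that of an upstream start of Ccnd3, and in 3.17% of all. These are matches of letters and not measured binding sites.

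Compared per length, the 8 transcripts spanned a wide range of levels. Cdk4 stood highest, with a mean of 147 RPKM (reads scaled to library size and to exon length) ± 6.48 (SD over the 4 libraries, which differ in treatment). Ccnd2 followed with 117 ± 27.4 RPKM and Ccnd3 with 108 ± 19.5. The ranges of Cdk4 and Ccnd2 overlapped, as did those of Ccnd2 and Ccnd3, so the order of these 3 is not fixed by the libraries. Cdkn1a came next at 47.1 ± 11.5 RPKM, below Ccnd3 and above Cdk6 in 4 of 4 libraries. Cdk6 was at 13.7 ± 1.32 RPKM, and within each library Cdk4 was 9.66 to 13.1 times higher per length. Rb1 at 10.9 ± 1.26 and Cdkn1b at 10.1 ± 0.548 overlapped each other, and Rb1 overlapped Cdk6. Cdkn2c was lowest, with 1.96 to 4.02 RPKM from 12 to 22 reads per library.

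**Figure D1:**
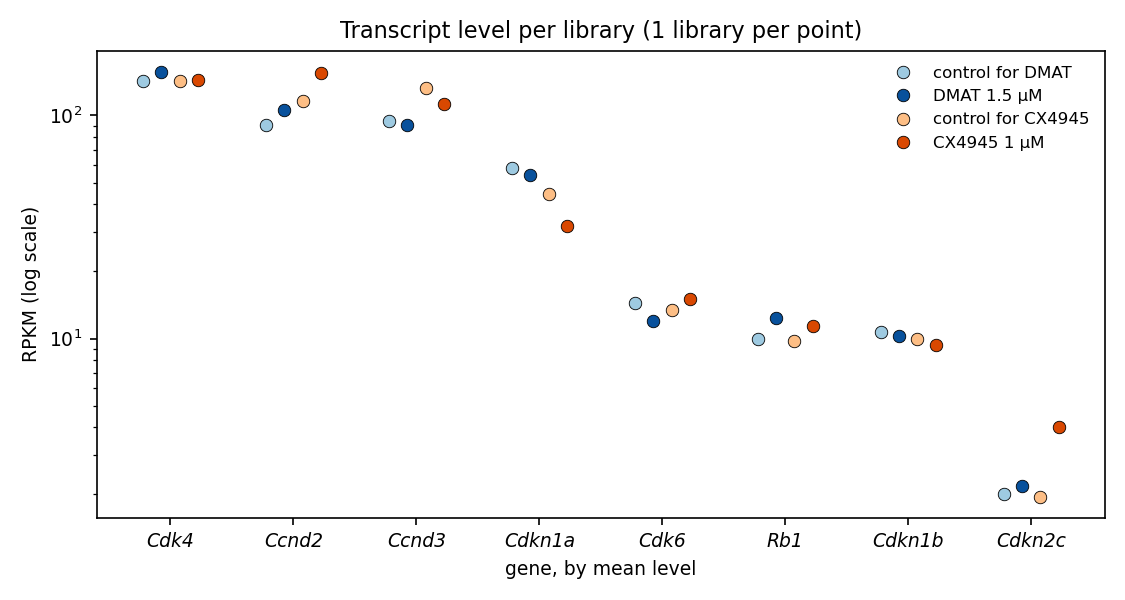
RPKM of each gene (log axis) in the 4 libraries, 1 point per library, with genes ordered by mean level. Cdk4 lies between 143 and 157 RPKM in all 4 libraries, while Ccnd2 runs from 91.1 in the control for DMAT to 155 with CX4945 and Cdkn1a from 57.9 down to 32.1.

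The tables carry the markers of the labelled cells. All 6 CD4 T cell markers were read in every library, and their summed level was 1673 to 1785 CPM (reads scaled to library size). Against that, the summed level was at most 1.44 CPM for 4 B cell markers, 0.785 for 5 myeloid, 0.491 for 3 NK and 4.91 for 2 CD8 markers, and 3 erythroid markers were at 0 reads. The myeloid gene Lyz2 and the B cell genes Cd79b and Ms4a1 were at 0 in all 4 libraries. The 4 activation and cycling markers (Cd69, Il2ra, Mki67 and Tfrc) summed to 3634 and 3180 CPM in the control and DMAT, and to 3090 and 2727 CPM in the control and CX4945. Each of the 4 had an unadjusted p under 0.05 in the test over both experiments given next (7.59% of all genes did), Cd69 higher and the other three lower with the inhibitors, and 0 of 4 passed with adjustment. Their part in the differences given below was not tested.

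None of the 8 genes passed the test over both experiments. That test was edgeR's quasi-likelihood fit of the inhibitor libraries against the control libraries, blocked on experiment, and p-values were adjusted by the Benjamini-Hochberg method over all 9679 genes fitted. Adjusted p was under 0.05 for 0 of the 8 and for 0.847% of all genes, of which 0.341% of all rose and 0.506% fell. Without adjustment 1 of the 8, Ccnd2, had p under 0.05, against 7.59% of all genes, and DESeq2 also called 0 with adjustment and 1 without (0.971% of all genes). The test has 1 residual degree of freedom per gene, and its standard errors mostly reflect the spread of other genes. In bulk samples fewer cells of a type and less RNA per cell cannot be told apart.

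Pair by pair the changes were small. With DMAT 0 of the 8 genes were at least 1.5-fold higher or lower than in the control, where 9.39% of 9649 genes were (4.54% higher, 4.85% lower). With CX4945 1 of the 8, Cdkn2c, was past 1.5-fold, where 8.22% of 9358 genes were (4.01% higher, 4.21% lower). Between the controls 0 of the 8 were, against 8.94% of 9564 genes (4.13% higher, 4.81% lower). The median log2 ratio of the 8 was 0.03 with DMAT and 0.09 with CX4945, beside medians over all genes of 0.0036 and 0.0038. A ratio between single libraries has no replicate check, and the intervals given with the ratios are exact 95% intervals (Clopper-Pearson) that cover counting error only. With DMAT they lay wholly above 1 for 3 of the 8 genes (9.20% of all genes) and below 1 for 0 (9.75%), which is 19.0% of all genes on either side. With CX4945 they lay above 1 for 1 (7.32%) and below for 2 (7.38%), with 14.7% of all genes on either side. Between the controls they lay above 1 for 2 (9.44%) and below for 1 (9.22%), with 18.7% on either side.

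**Figure D2:**
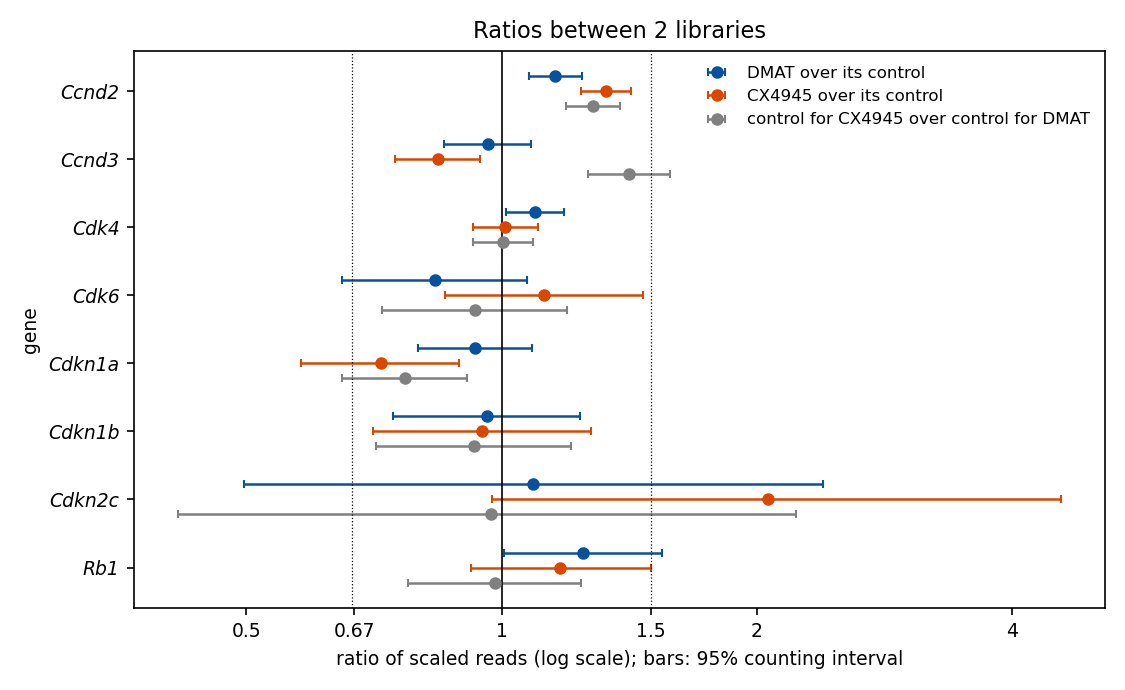
Ratio of scaled reads between pairs of libraries for each gene (log axis, bars are 95% counting intervals), with dotted lines at 1.5-fold either way. Ccnd2 is to the right of 1 in both inhibitor comparisons, at 1.16 and 1.33, and between the controls, at 1.28, while the wide bars of Cdkn2c reflect its 64 reads.

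Among the cyclins, Ccnd2 came nearest to the test's threshold. Ccnd2 encodes cyclin D2, the D cyclin that lymphocytes induce early after activation (mm9 chromosome 6, 127075797 to 127101066). It had 1441 reads in the control for DMAT, 1530 with DMAT, 1520 in the control for CX4945 and 1797 with CX4945. Scaled to library size these are 519, 600, 665 and 883 CPM, so each inhibitor library is above its own control, but the control of the CX4945 experiment is above the DMAT library as well. The ratio was 1.16 with DMAT (1.08 to 1.24) and 1.33 with CX4945 (1.24 to 1.42). The ratio between the controls, 1.28 (1.19 to 1.38), lay between those values. In the joint test Ccnd2 had a log2 fold change of 0.31 ± 0.09 (SE), higher in 2 of 2 pairs, and an edgeR adjusted p of 0.0846. With uniquely placed reads in place of all exon reads it passed, with 0.32 ± 0.08 and an adjusted p of 0.0146. Across 10 other settings its adjusted p ran from 0.0146 to 1. Set against the other experiment's control, the DMAT ratio turned to a log2 value of -0.15.

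Ccnd3 encodes cyclin D3, the other D cyclin of lymphocytes (chromosome 17, 47642000 to 47736632), and its values moved the other way. It had 592 and 523 reads in the DMAT pair and 688 and 515 in the CX4945 pair, or 213, 205, 301 and 253 CPM. Both controls were above the inhibitor library of their own pair, and both libraries of the CX4945 experiment were above both of the DMAT experiment. The ratio was 0.962 with DMAT (0.854 to 1.08) and 0.84 with CX4945 (0.748 to 0.943). Between the controls it was 1.41 (1.26 to 1.58), a larger difference than either inhibitor gave. The joint log2 fold change was -0.15 ± 0.10 (edgeR adjusted p = 0.801). Of its exon reads 77.9% were placed uniquely, and its locus overlaps that of Bysl in these tables. The third D cyclin, Ccnd1, had 0 reads in all 4 libraries, which allows up to 1.08 to 1.47 CPM per library at a floor of 3 counts.

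Because both D cyclins were read in the same libraries, their proportion needs no scaling between libraries. Per length, Ccnd2 stood to Ccnd3 as 0.963 in the control and 1.16 with DMAT, and as 0.874 in the control and 1.38 with CX4945. The proportion was thus higher in each inhibitor library than in its own control. Which cyclin was the more abundant is not settled, since the counting interval of the control for DMAT holds 1 (0.874 to 1.06) and the ratio depends on the reads used. With unique exon reads and the same lengths it was 1.14 and 1.4 in the DMAT pair and 1.03 and 1.6 in the CX4945 pair, above 1 in 4 of 4 libraries. The interval of the control for CX4945 (0.935 to 1.145) holds 1. Unique reads were 92.2% of the exon reads of Ccnd2 but 77.9% of those of Ccnd3, which by itself raises this ratio. With all exon reads the proportion changed 1.2-fold with DMAT (1.05 to 1.38) and 1.58-fold with CX4945 (1.38 to 1.81). Between the controls it changed 0.908-fold (0.794 to 1.04). With unique reads the changes were 1.23-fold with DMAT (1.05 to 1.44) and 1.55-fold with CX4945 (1.33 to 1.8). This proportion, and its form with unique reads, was examined after the levels of both genes were seen, and with 1 library per arm it has no replicate check. The summed level of both cyclins was 186 and 196 RPKM in the DMAT pair and 250.3 and 267 in the CX4945 pair.

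**Figure D3:**
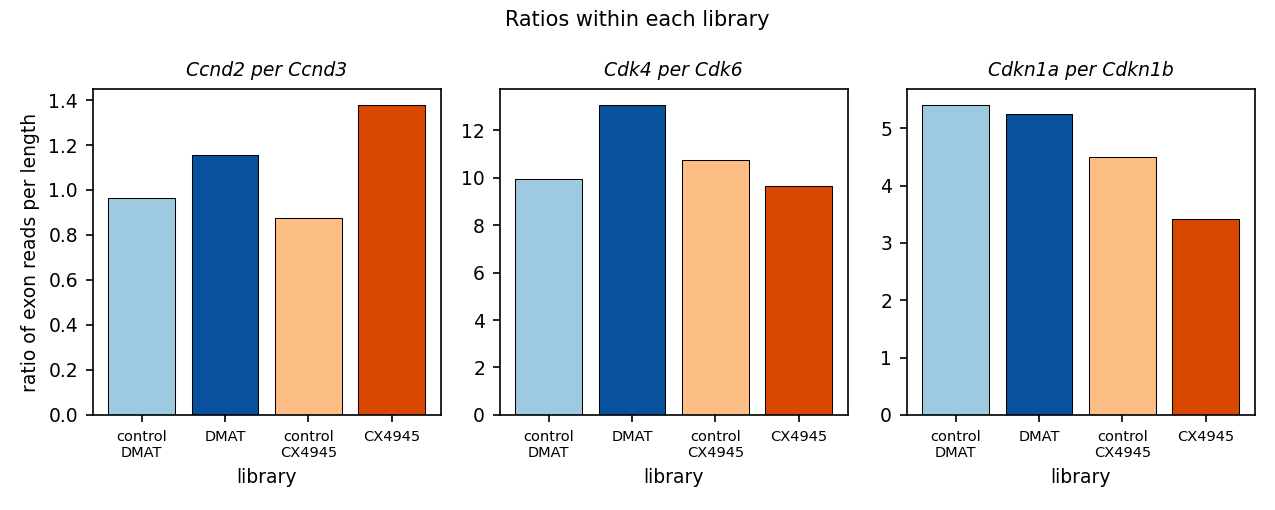
Ratios of exon reads per length within each library for Ccnd2 per Ccnd3, Cdk4 per Cdk6 and Cdkn1a per Cdkn1b, 1 bar per library with axes from 0. The Ccnd2 per Ccnd3 bars, from all exon reads, are at 0.963 and 0.874 in the controls and at 1.16 and 1.38 with the inhibitors.

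The kinase transcripts varied little. Cdk4, the main G1 kinase here (chromosome 10, 126500590 to 126504976), had 1290, 1297, 1065 and 958 reads in the order control, DMAT, control, CX4945. On the CPM scale these are 465, 509, 466 and 471, so 3 of the libraries lie within a few CPM of each other and DMAT stands slightly above them. The ratio was 1.1 with DMAT (1.01 to 1.18), 1.01 with CX4945 (0.924 to 1.1) and 1.0 between the controls (0.924 to 1.09). The joint log2 fold change was 0.07 ± 0.09 (edgeR adjusted p = 0.939). Myc, whose E-box is drawn in the Cdk4 stretch above, had 407 and 469 CPM in the DMAT pair and 474 and 415 in the CX4945 pair. Its log2 ratios were 0.21 and -0.19, of opposite sign, with a joint adjusted p of 0.996 (edgeR). Max, the partner that MYC binds DNA with, stood at 0.25 and 0.17 and did not pass (edgeR adjusted p = 0.69).

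Cdk6, the second D cyclin kinase (chromosome 5, 3343893 to 3523218), had 149 and 114 reads in the DMAT pair, control first, and 114 and 114 in the CX4945 pair. In CPM these are 53.7, 44.7, 49.9 and 56.0, which leaves the DMAT library lowest and the CX4945 library highest. The ratio was 0.833 with DMAT (0.647 to 1.07) and 1.12 with CX4945 (0.858 to 1.47), and both intervals hold 1. The joint log2 fold change was -0.06 ± 0.17 (edgeR adjusted p = 0.984). Cdk4 made up 90.6% to 92.9% of the summed RPKM of both kinases in the 4 libraries. The proportion of Cdk4 to Cdk6 within a library changed 1.31-fold with DMAT (1.01 to 1.71) and 0.899-fold with CX4945 (0.677 to 1.2). The locus of Cdk4 overlaps that of Tspan31, which had 307 reads in all, and without a stated strand such reads cannot be told apart.

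Among the inhibitors, Cdkn1a had the lowest ratio with CX4945. Cdkn1a encodes p21 (chromosome 17, 29227924 to 29237667), and every one of its exon reads was placed uniquely. Its reads numbered 357 and 305 in the DMAT pair, control first, and 226 and 145 in the CX4945 pair. On the CPM scale these are 129, 120, 98.9 and 71.2, so both libraries of the DMAT experiment are above both of the CX4945 experiment. The ratio was 0.931 with DMAT (0.796 to 1.09) and 0.72 with CX4945 (0.581 to 0.891), or 1.39-fold lower. Between the controls it was 0.769 (0.648 to 0.911), which is close to the CX4945 value. The joint log2 fold change was -0.26 ± 0.13, lower in 2 of 2 pairs (edgeR adjusted p = 0.671). Without the CX4945 library, in a test without the block, it was 0.068. The 3 genes whose centred log2 CPM lay closest to those of Cdkn1a over the 4 libraries, among 6968 genes with at least 200 reads, were Ints2, Ect2 and Pex13, at Euclidean distances of 0.0557, 0.0697 and 0.075.

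Cdkn1b, the gene of p27 (chromosome 6, 134870419 to 134875531), was the steadiest of the inhibitors. Its 135, 119, 103 and 87 reads correspond to 48.6, 46.7, 45.1 and 42.8 CPM, with no library far from the others. The ratio was 0.96 with DMAT (0.744 to 1.24) and 0.948 with CX4945 (0.704 to 1.27), and the joint log2 fold change was -0.07 ± 0.17 (edgeR adjusted p = 0.973). Changes inside those intervals were not detectable at this depth. Cdkn2c, which encodes the INK4 inhibitor p18 (chromosome 4, 109333481 to 109339794), had 15 and 15 reads in the DMAT pair and 12 and 22 in the CX4945 pair. The CX4945 library alone stands above the rest, at 10.8 CPM against 5.25 to 5.89. Its ratio was 2.06 with an interval from 0.975 to 4.56, and 1.09 (0.496 to 2.39) with DMAT. The joint log2 fold change was 0.59 ± 0.45 (edgeR adjusted p = 0.878).

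The other inhibitors of the list were mostly silent. Cdkn2a and Cdkn2b had 0 reads in all 4 libraries, and Cdkn1c, the gene of p57, had 4, 1, 0 and 3. Cdkn2d, which encodes the INK4 inhibitor p19, had 131 and 74 reads in the DMAT pair and 108 and 79 in the CX4945 pair. DMAT had 1.63-fold less of it than its control (1.21 to 2.19), and CX4945 had 1.22-fold less (0.903 to 1.65). It did not pass (joint log2 -0.49, edgeR adjusted p = 0.398), and just 7.4% of its reads were placed uniquely, so its value may belong to other loci. With unique reads its log2 ratio was -0.35 with DMAT and 0.13 with CX4945, the second of opposite sign to that from all reads. Those values rest on 7.4% of 392 reads over the 4 libraries, too few for the joint fit with unique reads. They were given no counting interval, so the sign with CX4945 is not settled. Over the 3 inhibitors Cdkn1a, Cdkn1b and Cdkn2c the summed level was 70.6 and 66.3 RPKM in the DMAT pair and 56.4 and 45.5 in the CX4945 pair. Cdkn1a was 82.0% and 81.2% of that sum in the first pair and 79.0% and 70.5% in the second. The proportion of Cdkn1a to Cdkn1b changed 0.969-fold with DMAT (0.718 to 1.31) and 0.76-fold with CX4945 (0.525 to 1.1), and both intervals hold 1.

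Rb1, the brake that the kinases release (chromosome 14, 73583480 to 73725629), had 166 and 190 reads in the DMAT pair and 134 and 140 in the CX4945 pair. In CPM these are 59.8, 74.6, 58.7 and 68.8, with both inhibitor libraries above both controls. The ratio was 1.25 with DMAT (1.01 to 1.54), 1.17 with CX4945 (0.919 to 1.5) and 0.981 between the controls (0.775 to 1.24). The joint log2 fold change was 0.28 ± 0.15, higher in 2 of 2 pairs (edgeR adjusted p = 0.725). Of its exon reads 60.5% were placed uniquely, and with those alone the ratios were 1.32 (0.996 to 1.75) and 1.06 (0.775 to 1.45). Its locus overlaps those of Rcbtb2 and Lpar6. The related pocket protein genes Rbl1 (p107) and Rbl2 (p130) stood at log2 0.0029 and 0.15 with DMAT, and at 0.16 and -0.02 with CX4945, and neither passed (adjusted p = 0.956 and 0.977, edgeR).

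Reads in introns, outside the exon count, and reads across exon junctions, a part of it, gave further views of the same libraries. Unique reads in introns were few: 49, 29, 29 and 37 for Ccnd2, 36, 33, 17 and 13 for Cdkn1a, 25, 21, 21 and 26 for Cdk6, and 1 to 4 per library for Cdk4. Scaled to library size, those of Cdkn1a were 13.0, 13.0, 7.44 and 6.39 CPM, lower in both libraries of the CX4945 experiment, as its exon reads were. Those of Ccnd2 were 17.7, 11.4, 12.7 and 18.2 CPM, and so lower with DMAT than in its control, unlike its exon reads. That difference rests on 49 and 29 reads and was given no counting interval, so it is not settled. Rb1 had 730 intronic reads in the 4 libraries, of which 13 were unique. Reads across exon junctions made up 26.4% of the exon reads of Cdk4 and 32.5% for Rb1, but 4.79% for Ccnd2, 3.78% for Cdkn1a and 4.5% for Cdkn1b. For Ccnd2 junction reads gave a ratio of 1.47 with DMAT (1.05 to 2.08) and 1.34 with CX4945 (0.967 to 1.87). For Cdk4 they gave 1.08 (0.927 to 1.25) and 1.22 (1.02 to 1.46), a higher CX4945 value than from all its exon reads.

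The wider G1 to S pathway was described through 7 lists holding 81 genes in all, the 8 above among them, of which 74 could be fitted. Adjusted p was under 0.05 for 0 of the 74 (edgeR quasi-likelihood, against 0.847% of all genes). Unadjusted p was for 9, Ccnd2 among them (7.59% of all genes). DESeq2 gave 0 and, unadjusted, 1 (0.971% of all genes), which was Ccnd2 again. Among the 10 E2F and DP factors the median log2 ratio was 0.11 with DMAT and -0.14 with CX4945. E2f1 stood at -0.0049 and 0.28, and E2f2 at 0.29 and -0.23. Of the 14 G1/S kinases and regulators, 11 had a joint log2 fold change below 0 and 3 above, where 51.0% of all genes were above. The list median was -0.15 against 0.0041 over all genes. With adjustment 0 of the 14 passed (0.847% of all genes) and without it 1 had p under 0.05 (edgeR, 7.59% of all genes). Within that list Cdk2, the kinase that acts after CDK4/6, had ratios of 0.976 (0.849 to 1.12) and 0.798 (0.68 to 0.937). Its partner Ccne1 had 1.01 (0.854 to 1.2) and 0.87 (0.733 to 1.03). Ccne2, the second cyclin E, went from 130 reads to 67 in the CX4945 pair, 1.73-fold lower (1.28 to 2.36), but 160 and 167 in the DMAT pair, and it did not pass (edgeR adjusted p = 0.887).

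Among replication genes that E2F activates, the 16 of the list (the Mcm helicase subunits, Pcna, Rrm1, Rrm2, Tyms and others) had a median log2 ratio of 0.08 with DMAT and -0.08 with CX4945, and 0 of 16 were past 1.5-fold with either inhibitor (9.39% and 8.22% of all genes were). Over both experiments 8 were above 0 (51.0% of all genes were) and 8 below. With adjustment 0 passed (0.847% of all genes) and without it 2 had p under 0.05 (edgeR, 7.59% of all genes). Those were Rrm1 and Rrm2, subunits of ribonucleotide reductase, whose DMAT ratios were 0.921 and 0.918 and whose CX4945 ratios were 0.838 and 0.842. Cdt1, which loads the helicase, had the highest DMAT ratio of the list, 1.47 (1.11 to 1.95). Its CX4945 ratio went the other way, at 0.787 (0.57 to 1.08), and 62.8% of its exon reads were placed uniquely. These 3 were named after their values were seen. The 11 upstream regulators included Klf2, a factor of resting T cells. It was the only gene of the 7 lists at least 1.5-fold higher with both inhibitors, and none was at least 1.5-fold lower with both. Of all genes 4.54% were that much higher and 4.85% lower with DMAT, and 4.01% and 4.21% with CX4945. The share of all genes past 1.5-fold with both was not counted. Klf2 had 8 and 14 reads in the DMAT pair and 19 and 54 in the CX4945 pair (joint log2 1.43, edgeR adjusted p = 0.0904). Its DMAT ratio was 1.91 with an interval that holds 1 (0.746 to 5.25), and its CX4945 ratio was 3.19 (1.86 to 5.7). It passed with uniquely placed reads, and it also differed 2.89-fold between the controls (1.21 to 7.62). Against the other experiment's control its log2 ratio with DMAT was -0.53, and without the CX4945 library, in a fit without the block, the joint value was 0.018.

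The p53 target genes, to which Cdkn1a belongs, differed between the controls of the experiments. Of 13 such genes with enough reads, 6 were at least 1.5-fold lower in the control for CX4945 than in that for DMAT, and 0 higher. Of all genes 4.81% were that much lower and 4.13% higher. The 6, named after their values were seen, were Trp53inp1, Ccng1, Zmat3, Sesn2, Pmaip1 and Perp. For Pmaip1, with 9 to 21 reads per library, the counting interval holds 1. Trp53inp1, an autophagy and stress protein gene induced by p53, had 933 and 1086 reads in the DMAT experiment but 241 and 200 in the CX4945 experiment, 3.19-fold lower between the controls (2.76 to 3.69). Ccng1, the gene of cyclin G1, was 1.62-fold lower (1.47 to 1.8) between the controls and 1.46-fold lower (1.28 to 1.68) with CX4945. With DMAT 0 of 13 were at least 1.5-fold lower (4.85% of all genes were), and with CX4945 1 of 11 (4.21% of all genes). The list median was -0.47 between the controls, 0.05 with DMAT and -0.11 with CX4945. Log2 ratios were below 0 for 5 of 13 genes with DMAT and for 10 of 11 with CX4945, where 50.6% of all genes were above 0 with each. In the joint test 0 of 13 passed (0.847% of all genes did), with 2 at an unadjusted p under 0.05 (edgeR, 7.59% of all genes). Trp53 itself had a ratio of 1.01 between the controls (0.901 to 1.13), 0.996 with DMAT (0.891 to 1.11) and 1.28 with CX4945 (1.14 to 1.44), with a joint adjusted p of 0.755 (edgeR). What sets the experiments apart was not tested.

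**Figure D4:**
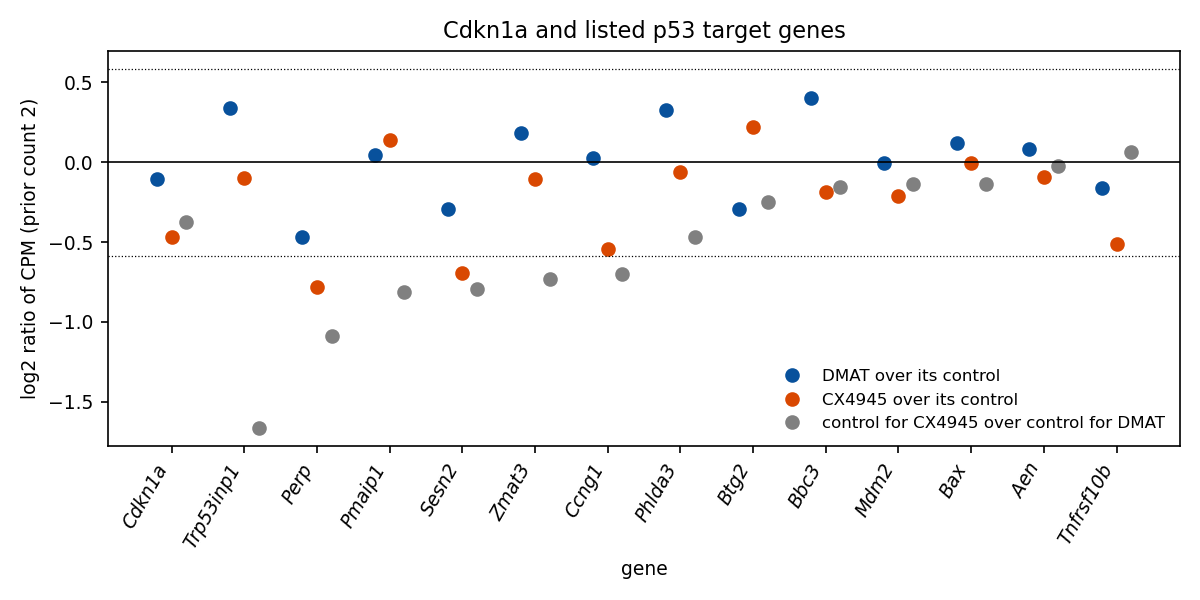
Log2 ratio of CPM for Cdkn1a and 13 listed p53 target genes in 3 comparisons, 1 point each, with dotted lines at 1.5-fold. The grey points (control for CX4945 over control for DMAT) fall below the lower line for 6 of the 13 listed genes, with Trp53inp1 lowest at -1.66 and Cdkn1a at -0.38.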

How the data were processed

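The 4 libraries were made from total RNA (TruSeq RNA kit, per the labels' protocols). The deposited values used here are raw read counts per gene (total exon reads, with unique exon, gene and exon-exon reads as further readouts), counted by the authors before deposit. Total exon reads exceed unique exon reads, so they include reads not placed uniquely. The submitters' processing notes list mm9 and CASAVA 1.8.2. Which aligner, annotation, counting rule and strand setting applied is not given in the sources used here. Exon length, another deposited column, gave the RPKM.

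Counts were scaled with TMM (edgeR 4.0.16, R 4.3.3). Log2 ratios of CPM used a prior count of 2 and genes with at least 20 reads in a pair. The joint fit used genes with at least 10 reads in 2 libraries, with the pair as a block, taken from the titles. DESeq2 1.42.0 and further settings were tried as alternatives. Nothing says the pairs are separate cultures or animals, so p-values cover only the scatter among these 4 libraries and it may be technical. The chi-square per degree of freedom between any pair of libraries was 2.56 to 5.63, so none was a duplicate. Intervals cover counting error only, because each arm has 1 library. Without molecular identifiers a read is not a molecule, so they may be too narrow even for that error. The genes and lists were chosen with earlier results of these data known. Genes outside the 8 were named if they passed the joint test, were 1.5-fold changed with both inhibitors, or were set as named in any case. The 3 genes most like Cdkn1a were named by a distance rule. Max, the cell type markers and genes overlapping the 8 were named beside results they touch, and the p53 and E2F target genes after their values were seen. Depth was 2056635 to 2772525 exon reads per library.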

Additional observations from a re-analysis of the deposited data

Results flagged for a closer look

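Of the G1 genes described and the genes named by rule or in any case, 8 had log2 ratios of opposite sign with the 2 inhibitors. Each arm has 1 library, and the difference was not tested. The difference, DMAT minus CX4945, was -0.42 for Cdk6, 0.17 for Rbl2, 0.22 for Ccne1, 0.96 for Ccne2, -0.29 for E2f1, 0.52 for E2f2, 0.40 for Myc and -0.36 for Trp53. For 5 of these genes both counting intervals hold 1, and for Myc neither does. Genes named after their values were seen were not counted here. Some of those also had opposite signs, such as Cdt1 (0.54 with DMAT and -0.34 with CX4945). Against the other inhibitor's control both signs turned for E2f2 (-0.31 with DMAT and 0.37 with CX4945), Ccne1 (-0.40 and 0.22) and Myc (-0.014 and 0.028).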

How the results depend on the processing

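No paired analysis by replicate number was possible because each group holds 1 library. The block is the experiment. Without the replicate block 0 genes rose and 1 fell, where 33 rose and 49 fell with it. DESeq2 with the block gave 2 and 1, and no filter on low counts gave 17 that rose.

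The genes at least 1.5-fold changed numbered 438 higher and 468 lower with DMAT and 375 and 394 with CX4945. At 2-fold they were 105, 126, 83 and 86, and with no filter on low counts 1256, 1114, 1757 and 1892. Against the other inhibitor's control CX4945 gave 619 and 702.

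Among the 8 genes both the choice of control and the use of exon-exon reads moved values. Against the other inhibitor's control the log2 ratios with DMAT were -0.15 for Ccnd2, -0.55 for Ccnd3 and 0.27 for Cdkn1a, and with CX4945 0.77, 0.25 and -0.84. The signs of Ccnd2 and Cdkn1a with DMAT and of Ccnd3 with CX4945 thus turned, as did that of Cdkn1b with DMAT (0.050), and the cause was not tested. Just those of Ccnd2 and Ccnd3 had intervals off 1 before. Against the mean of both controls Ccnd2 stood at 0.031 and 0.59 and Ccnd3 at -0.30 and -0.0023. Signs turned with both inhibitors for Myc (-0.014 with DMAT and 0.028 with CX4945), E2f2 (-0.31 and 0.37) and Ccne1 (-0.40 and 0.22), and with DMAT for Klf2 (-0.53). Exon-exon reads gave 0.54 for Ccnd2, -0.41 for Cdkn1a and -0.47 for Cdkn1b with DMAT, and 0.28 for Cdk4, -0.13 for Cdkn1a, -1.69 for Cdkn1b and -1.03 for Cdkn2c with CX4945. The last 2 rest on 1 and 0 reads with CX4945. Junction reads numbered 7 to 14 per library for Cdkn1a and 1 to 8 for Cdkn1b. The counting intervals of these junction ratios hold the ratio from all exon reads, except that of Cdk4 with CX4945 (1.02 to 1.46, against 1.01). Other scalings, a prior count of 0.5 and unique exon reads left all ratios of the 8 genes inside their counting intervals.

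In the joint fit unique exon reads brought Ccnd2 past the threshold (0.32). Fits without the block that left out 1 library in turn ran from 0.02 to 0.58 for Ccnd2, -0.40 to 0.10 for Ccnd3, 0.02 to 0.13 for Cdk4, -0.21 to 0.11 for Cdk6, -0.68 to 0.068 for Cdkn1a, -0.13 to -0.0074 for Cdkn1b, 0.14 to 1.01 for Cdkn2c and 0.22 to 0.33 for Rb1. Signs reversed for Ccnd3 without the control for CX4945 (0.10), for Cdk6 without the control for DMAT (0.0089) or DMAT (0.11) and for Cdkn1a without CX4945 (0.068). They also reversed for Rbl2 (-0.13 without DMAT and -0.014 without the control for CX4945, and -0.15 with unique reads), Ccne1 (0.0026 without DMAT and 0.12 without the control for CX4945), E2f2 (-0.27 without the control for DMAT and -0.028 without CX4945) and Myc (-0.10 without the control for DMAT and -0.086 without DMAT). Without CX4945 Ccne2 was at 0.19, E2f1 at -0.037 and Trp53 at -0.013, also reversed, and the cause was not tested. In these fits the lone library of an arm is assumed to vary like the other arm.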
